A study of Homo sapiens with 12 samples.

Results

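ATF4 and 34 other genes of the amino acid response were followed in A549 and H1299 lung cancer cells with and without added VGF. The 35 genes were picked by symbol from a list of ATF4, its partner factors and genes commonly assigned to it, and all 35 were found among the 26535 features of the count table. Of these, 33 passed the filter on low counts and were tested together with all 18228 features that passed. SLC7A3 and FGF21 did not pass. H1299 and A549 are established human non-small-cell lung cancer lines, A549 from an adenocarcinoma. The 4 groups were H1299 with the VGF lentivirus, H1299 with an empty vector, A549 with the VGF lentivirus and A549 with an empty vector, each with 3 libraries that the design text calls biologically independent. All cells had received a vector. H1299 was grown in RPMI-1640 and A549 in DMEM/F12, both with fetal bovine serum, so line and medium cannot be told apart. No source used here gives the promoter that drives VGF or says whether the lines are clones. VGF encodes a secreted precursor of neuroendocrine peptides, and the question was which genes its overexpression changes in each line.

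ATF4 is a basic leucine zipper transcription factor of the integrated stress response. Its messenger RNA is translated more when the initiation factor eIF2 is phosphorylated, by GCN2 on uncharged tRNA, by PERK in endoplasmic reticulum stress, or by related kinases. Its messenger RNA level is therefore only a partial measure of its activity. With CEBP-family partners ATF4 binds composite elements in genes for amino acid synthesis, amino acid uptake, tRNA charging and folate metabolism, and in genes that restrain the response, such as TRIB3. Serine and asparagine synthesis by this route is a known feature of many lung cancers.

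The core of that composite element, TGATGNAA, was searched on both strands of the RefSeq promoter windows (GRCh38.p14), which run from 250 bases before to 50 bases after each annotated start. RefSeq windows were found for 29 members, and 10 of them (34.5%) held the core, against 4.46% of 27305 genes. By window, 12 of 49 member windows held it, against 3.62% of all 35116. The members were picked as genes commonly assigned to ATF4, so these shares are no independent result about them. No other motif was searched. ALDH1L2, GPT2, NUPR1, PSPH, SHMT2 and SLC7A3 were not matched. SLC3A2 held it as well, 37 bases after a start. The stretches of 30 bases that follow are shown because they carry the core in members described in the results and in CEBPG, FGF21 and SLC7A1. Each reads 5′ to 3′ on the strand of its gene, with the core, or its reverse complement TTNCATCA, in capitals.
ASNS: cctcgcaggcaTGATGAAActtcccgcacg
ATF3: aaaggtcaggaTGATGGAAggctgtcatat
CEBPG: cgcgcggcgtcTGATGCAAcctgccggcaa
CHAC1: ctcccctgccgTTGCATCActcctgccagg
FGF21: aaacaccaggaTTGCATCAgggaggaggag
MTHFD1L: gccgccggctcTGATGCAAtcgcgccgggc
SLC1A4: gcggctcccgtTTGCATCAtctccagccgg
SLC1A5: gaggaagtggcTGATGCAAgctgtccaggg
SLC7A1: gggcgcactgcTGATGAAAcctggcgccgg

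The ASNS stretch lies at chr7:97872458-97872487 on the minus strand, 68 bases before the RefSeq start. The ATF3 stretch lies at chr1:212565205-212565234 on the plus strand, 191 bases before a start, and the CHAC1 stretch at chr15:40953251-40953280 on the plus strand, 209 bases before a start. Those of CEBPG (chr19:33374060-33374089, plus strand) and FGF21 (chr19:48755459-48755488, plus strand) lie 42 and 54 bases before a start. The SLC1A5 stretch (chr19:46784893-46784922, minus strand) lies 97 bases before a start and that of SLC1A4 (chr2:64989381-64989410, plus strand) 7 bases before. In MTHFD1L (chr6:150866346-150866375, plus strand) and SLC7A1 (chr13:29595663-29595692, minus strand) the core lies 24 and 7 bases after a start. A match describes these letters and is no evidence that ATF4 binds there.

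Library totals ran from 31378171 to 41919484 counts. VGF itself (GRCh38 chr7:101162509-101165593, minus strand) had 886, 941 and 1114 CPM (counts scaled to the TMM-adjusted library size) in H1299 with VGF, against 77.2, 90.5 and 89.0 in H1299 with empty vector. In A549 it had 1361, 1201 and 1287 CPM with VGF, against 2.74, 2.54 and 2.02 with empty vector. CDKN2A had 5158 to 7075 counts in H1299 libraries and 0 to 51 in those of A549, a line known to lack the gene. The 51 counts were in A549 VGF library 2 and 11 were in A549 empty-vector library 1, with 0 in the other A549 libraries. The summed level of 8 epithelial markers was 1107 to 1258 CPM in H1299 and 6272 to 8231 CPM in A549, and CDH1 was at 0 counts in all H1299 libraries. One library stood apart: A549 VGF library 2 had a summed level of 15 endothelial markers of 521 CPM, against 72.5 to 83.2 CPM in A549 with empty vector, and ERG, an endothelial factor, had 515 counts there. In bulk RNA such as this, a change in the share of cells and a change in RNA per cell cannot be told apart.

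Between the lines, most of the module was higher in H1299. With empty vector, 31 of the 33 tested members differed between H1299 and A549 (edgeR quasi-likelihood test, adjusted p under 0.05), where 77.2% of all features did. Of these, 26 were higher in H1299 (78.8% of tested members, against 38.5% of all features) and 5 were lower (15.2%, against 38.6%). The median log2 difference of the tested members was 0.95, against 0.00608 over all tested features. A rise of more than 1 log2 unit was called for 16 members (48.5%), against 21.0% of all features and 17.7% of features that reached a mean of 5 CPM in a group, and a fall of more than 1 for 2 members (6.06%, against 23.6%). The libraries of the lines did not overlap for 26 members higher in H1299 (40.7% of all features) and 3 lower (40.3%). The members together held 0.888 to 0.935% of all counts in H1299 with VGF and 0.921 to 0.991% in H1299 with empty vector. They held 0.395 to 0.403% in A549 with VGF and 0.401 to 0.407% in A549 with empty vector. Library 1 of H1299 with empty vector, the lowest of its group for 28 of the 33 tested members (and for 36.3% of well expressed features), was still above every A549 library in this share.

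**Figure D1:**
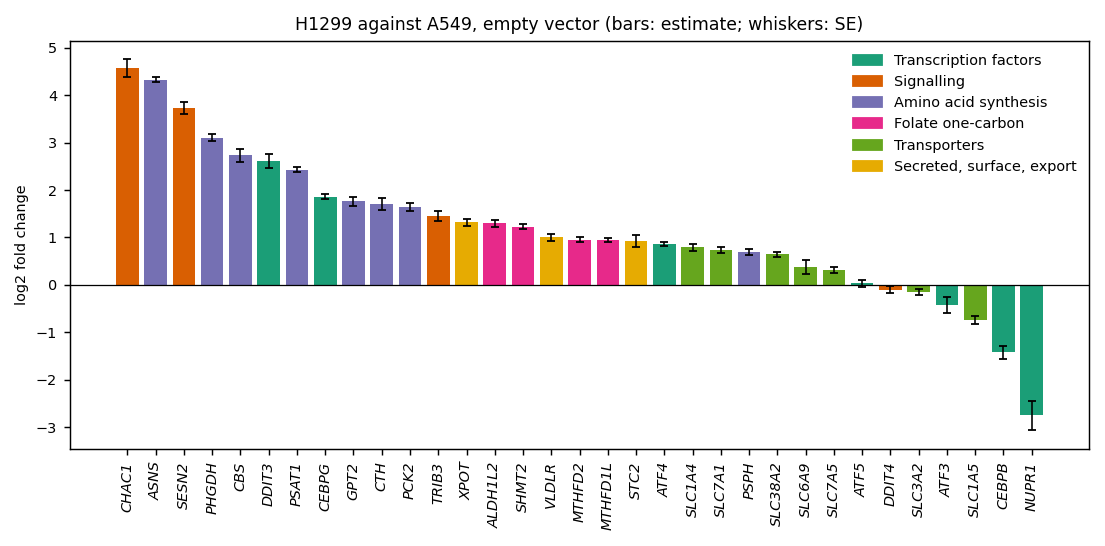
The bars give the log2 fold change of each of the 33 tested members in H1299 against A549 with empty vector, with whiskers of 1 SE on the vertical axis. CHAC1 at 4.57 and ASNS at 4.33 stand at the high end and NUPR1 at -2.75 at the low end.

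All 8 enzymes of amino acid synthesis were higher in H1299, with a median log2 difference of 2.09. ASNS, asparagine synthetase (chr7:97852118-97872542, minus strand), had 1258, 1332 and 1361 CPM in H1299 with empty vector, against 63.7, 69.4 and 63.4 CPM in A549 with empty vector. Every H1299 library was far above every A549 library, a 20.1-fold difference (log2 4.33, SE 0.05, adjusted p = 8.8e-15). PHGDH, the first enzyme of serine synthesis from glycolysis (chr1:119648411-119744226, plus strand), had 337, 357 and 343 CPM in H1299, against 44.2, 41.1 and 35 CPM in A549. It was 8.61-fold higher in H1299 (log2 3.11, SE 0.08, adjusted p = 2.0e-12). PSAT1, the next enzyme of that route, was 5.39-fold higher, and PSPH, the last, 1.62-fold higher. All 3 steps of the serine route were higher in H1299, by unequal amounts.

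CBS, which joins homocysteine to serine in the transsulfuration route (chr21:43053191-43076943, minus strand), had 146, 155 and 159 CPM in H1299 with empty vector, against 27.7, 21.4 and 20.1 CPM in A549 with empty vector. The libraries did not overlap, and the difference was 6.65-fold (log2 2.73, SE 0.14, adjusted p = 1.2e-09). CBSL, a near-identical copy on the same chromosome, was listed separately, so the split of reads between the copies is uncertain. With the counts of CBS and CBSL summed, an alternative added after the data were seen, the log2 difference was 3.05. CTH, which completes transsulfuration to cysteine, was 3.26-fold higher in H1299, GPT2, a mitochondrial alanine aminotransferase, 3.39-fold, and PCK2, the mitochondrial phosphoenolpyruvate carboxykinase, 3.14-fold. Per length, ASNS was the highest member in H1299, with a deposited FPKM of 689 ± 35.9 with empty vector (SD, n = 3), and ranked 11 in A549 with 28.8 ± 1.49. PSAT1 and ATF4 followed ASNS in H1299, with 331 ± 16.7 and 269 ± 41.9 FPKM. The deposited FPKM of ATF4 scattered more than its counts, with a coefficient of variation of 15.6% against 2.22% in that group.

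Among the 4 signalling regulators, 3 were higher in H1299. CHAC1, a glutathione-degrading enzyme (chr15:40952962-40956519, plus strand), had 87.8, 92.6 and 76.0 CPM in H1299 with empty vector, against 3.49, 2.39 and 4.87 CPM in A549 with empty vector. It had the largest difference of the module, 23.8-fold (log2 4.57, SE 0.18, adjusted p = 8.8e-11). SESN2, a leucine sensor that restrains mTORC1 (chr1:28259527-28282491, plus strand), had 125, 143 and 136 CPM in H1299, against 8.59, 10.3 and 11.5 CPM in A549. Its difference was 13.3-fold (log2 3.73, SE 0.12, adjusted p = 1.0e-11). TRIB3, a pseudokinase that feeds back on ATF4 (chr20:362835-397559, plus strand), had 169, 198 and 230 CPM in H1299, against 78.9, 74.2 and 64.8 CPM in A549. None of these 3 genes overlapped between the lines, and TRIB3 was 2.74-fold higher in H1299 (log2 1.45, SE 0.10, adjusted p = 2.6e-08). DDIT4, another inhibitor of mTORC1 signalling, did not pass, with 245, 279 and 253 CPM in H1299 and 280, 276 and 275 CPM in A549 (log2 -0.10, adjusted p = 0.259).

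The 7 transcription factors were split, with a median log2 difference of 0.03. ATF4 itself (chr22:39519695-39522685, plus strand) had 450, 468 and 450 CPM in H1299 with empty vector, against 242, 256 and 254 CPM in A549 with empty vector. It was 1.82-fold higher in H1299 (log2 0.86, SE 0.04, adjusted p = 2.2e-10), with no overlap. DDIT3, which encodes the stress factor CHOP (chr12:57516588-57521737, minus strand), had 39.3, 48.0 and 47.3 CPM in H1299, against 6.58, 8.48 and 6.92 CPM in A549. That is a 6.12-fold difference (log2 2.61, SE 0.14, adjusted p = 1.6e-09), and CEBPG, a CEBP-family partner of ATF4, was 3.64-fold higher.

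Other factors went the opposite way. CEBPB (chr20:50190734-50192689, plus strand) had 8.03, 8.53 and 11 CPM in H1299 with empty vector, against 26.9, 22.5 and 24.1 CPM in A549 with empty vector, and was 2.67-fold lower (log2 -1.42, SE 0.13, adjusted p = 5.4e-07). NUPR1, a small stress-induced chromatin protein (chr16:28532708-28539174, minus strand), had 1.11, 1.54 and 2.48 CPM in H1299, against 14.0, 10.8 and 9.77 CPM in A549. Both sets of libraries stayed apart, and NUPR1 was 6.74-fold lower in H1299 (log2 -2.75, SE 0.31, adjusted p = 3.2e-06). ATF3, an early stress factor (chr1:212565334-212620777, plus strand), had 12.6, 11.1 and 9.55 CPM in H1299, against 14.8, 17.4 and 12.4 CPM in A549. These libraries overlapped, and its lower level in H1299 (log2 -0.42, SE 0.16, adjusted p = 0.0305) was no longer called with upper-quartile scaling (-0.32, adjusted p = 0.0932), on FPKM, or without any of 4 single empty-vector libraries (largest adjusted p = 0.163, without A549 empty-vector library 2). The level of ATF5 was 25.4 ± 1.39 CPM in H1299 and 24.9 ± 1.15 CPM in A549 (SD, n = 3 each, adjusted p = 0.707).

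**Figure D2:**
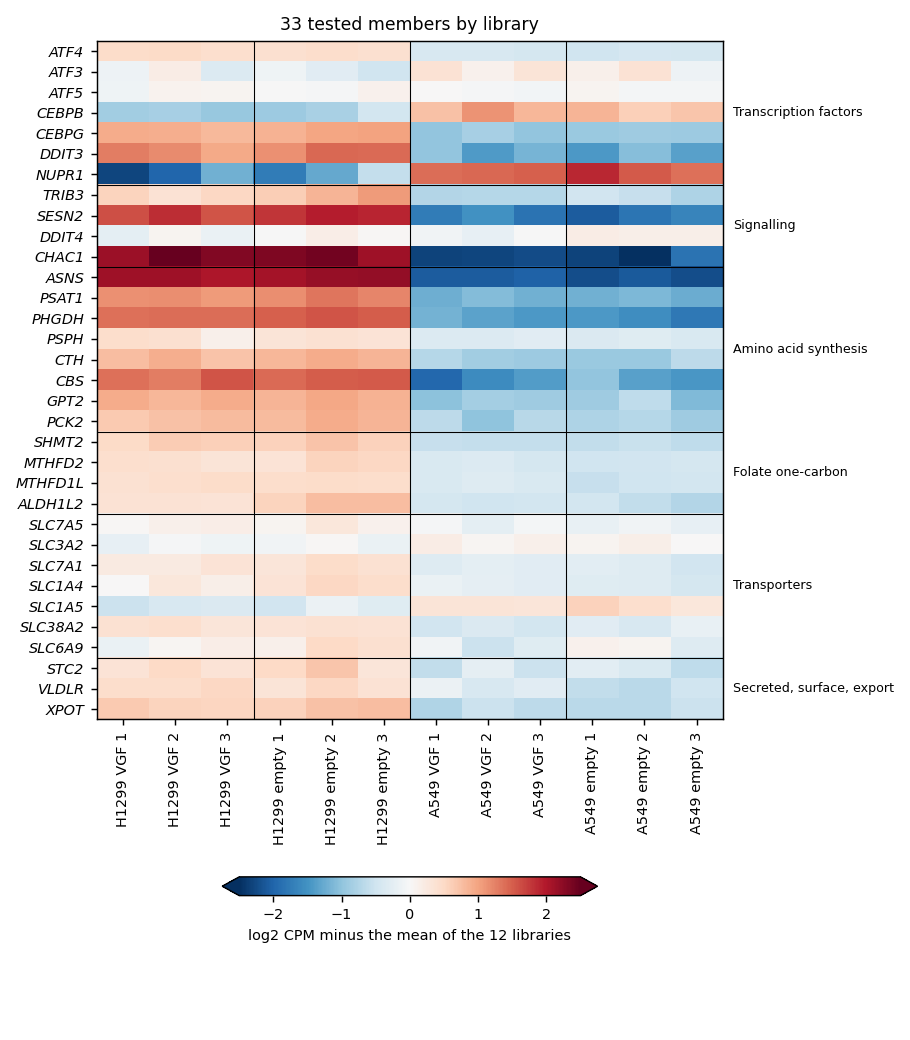
Each cell gives the log2 CPM of a tested member, grouped by role, in 1 of the 12 libraries, minus the mean of that member over all 12, with red above and blue below. The 6 H1299 libraries and the 6 A549 libraries separate for most members, while the VGF and empty-vector columns of a line look alike.

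Folate-linked enzymes and most transporters were moderately higher in H1299. All 4 mitochondrial folate enzymes were called higher, with a median log2 difference of 1.09: ALDH1L2 by 2.46-fold, SHMT2 by 2.34-fold, MTHFD2 by 1.93-fold and MTHFD1L by 1.93-fold. Of 7 tested amino acid transporters 5 were higher, including SLC1A4, a carrier of neutral amino acids, by 1.73-fold, SLC7A1, a carrier of cationic amino acids, by 1.66-fold and SLC38A2, the system A carrier SNAT2, by 1.57-fold. SLC1A5, the glutamine carrier ASCT2 (chr19:46774883-46788594, minus strand), was lower, with 185, 231 and 209 CPM in H1299 with empty vector, against 380, 344 and 313 CPM in A549 with empty vector. Its lines did not overlap (1.66-fold lower, log2 -0.73, SE 0.08, adjusted p = 3.0e-06). SLC3A2, the heavy chain shared by several carriers, had 380, 416 and 364 CPM in H1299, against 425, 449 and 408 CPM in A549, which overlapped. Its log2 difference of -0.14 (adjusted p = 0.0497) was positive on the FPKM scale, at 0.16, and was not called under upper-quartile scaling (-0.04, adjusted p = 0.582), so no direction is given. Its partner chain SLC7A5 was 1.24-fold higher in H1299.

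The 3 tested members that act outside the cell or in export were each higher in H1299: XPOT, the tRNA exporter, by 2.49-fold, VLDLR, a lipoprotein receptor, by 2.00-fold, and STC2, a secreted glycoprotein, by 1.90-fold. SLC7A3, a cationic amino acid carrier, had 0 counts in all 12 libraries. FGF21, a hormone induced by ATF4 in liver, had 5, 2 and 2 counts in H1299 with empty vector and 0, 2 and 0 in A549 with empty vector, and 0 counts in every VGF library. A count of 0 over the 3 libraries of a group allows up to 0.0244 CPM in H1299 with VGF and 0.0291 CPM in A549 with VGF. The 9 tested members with the TGATGNAA core in a window had a median log2 difference of 0.789. It was 1.003 for the 19 tested members whose windows lacked the core. Sites outside the windows were not searched, so this split cannot show whether the core goes with the line difference. ASNS and CHAC1, whose sites are shown, had the largest differences, and SLC1A5 and ATF3, also shown, were below 0. Upper-quartile scaling moved the median of all features to 0.112 and that of the tested members to 1.06, so the members stayed about as far above it.

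**Figure D3:**
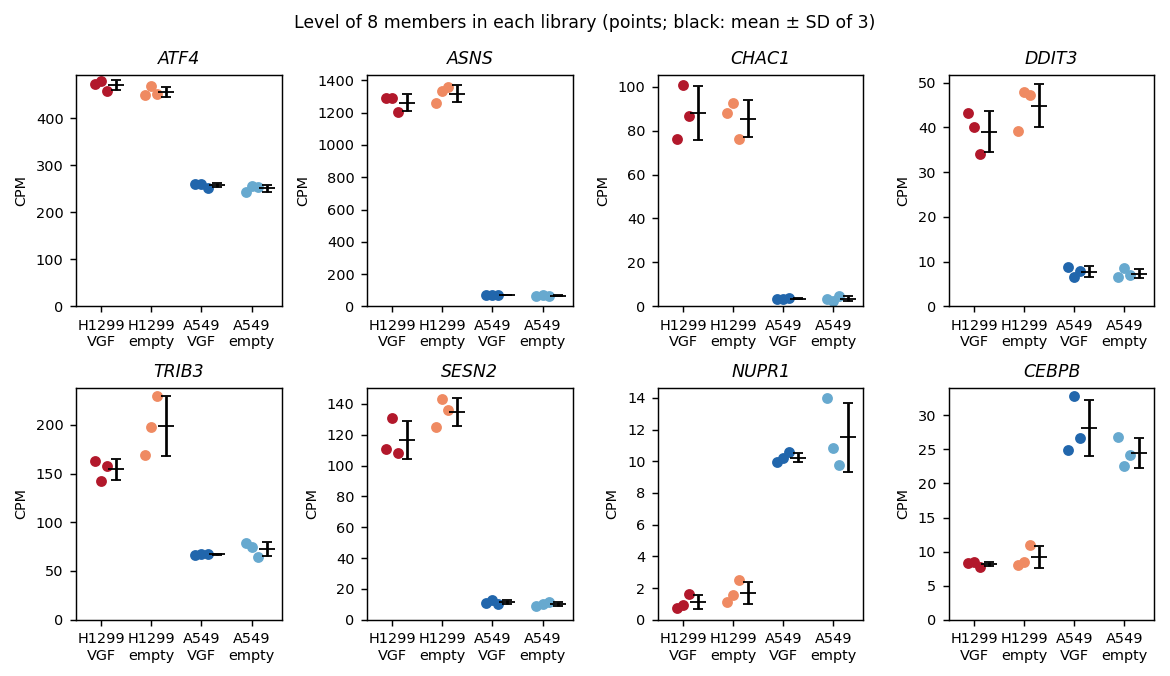
Points give CPM in each library for 8 members, with the mean and SD of 3 libraries in black, for H1299 with VGF, H1299 with empty vector, A549 with VGF and A549 with empty vector from left to right. ASNS lies between 1204 and 1361 CPM in H1299 and between 63.4 and 72.9 CPM in A549, with VGF and empty-vector points close together in each line.

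In A549, no member passed the edgeR quasi-likelihood test for VGF against empty vector. The count was 0 of 33, where 0.79% of all features were called. At an unadjusted p under 0.05 there were 7 members (21.2%, against 13.9% of all features), 4 higher (8.1% of all features were) and 3 lower (5.77% were). DESeq2 called 4, namely PHGDH, MTHFD1L and VLDLR as higher and DDIT4 as lower, among the 3.85% of features it called, and limma voom called 0. The log2 fold changes of the members ran from -0.37 to 0.33, with a median of 0.02, against 0 over all features, and 12 were below 0 (36.4%, against 47.4% of all features). The median was 0.03 without VGF library 2, 0.06 without empty-vector library 2 and 0.01 without empty-vector library 3. The 95% interval lay within 1 log2 unit of 0 for all 33 tested members and within 0.5 for 30.

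VLDLR (chr9:2621834-2660053, plus strand) came nearest to a call in A549. It had 46.5, 38.8 and 42.3 CPM in A549 with VGF, against 33.2, 32.0 and 36.4 CPM in A549 with empty vector. All 3 VGF libraries were above all empty-vector libraries (log2 0.33, SE 0.08, adjusted p = 0.0725). Without VGF library 2, the one with endothelial RNA, the value was 0.39 with an adjusted p of 0.0399. Over the 12 libraries left out in turn, its adjusted p ran from 0.0399 to 0.232. PHGDH had 53.0, 47.4 and 44.6 CPM in A549 with VGF, against 44.2, 41.1 and 35 CPM in A549 with empty vector, which left a narrow gap (log2 0.27, SE 0.08, adjusted p = 0.146). MTHFD1L, a mitochondrial folate enzyme (chr6:150865549-151101887, plus strand), had 78.6, 82.6 and 79.1 CPM with VGF, against 69.2, 73.0 and 75.0 CPM with empty vector (log2 0.15, SE 0.05, adjusted p = 0.166).

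On the low side in A549, DDIT4 (chr10:72273920-72276036, plus strand) had 234, 215 and 245 CPM with VGF, against 280, 276 and 275 CPM with empty vector. Its libraries did not overlap (log2 -0.26, SE 0.08, adjusted p = 0.149). SLC38A2 (chr12:46358189-46372867, minus strand) had 595, 648 and 604 CPM with VGF, against 686, 632 and 728 CPM with empty vector, with overlap (log2 -0.15, SE 0.05, adjusted p = 0.227). CBS had 14.0, 18.5 and 20.9 CPM with VGF, against 27.7, 21.4 and 20.1 CPM with empty vector, also with overlap (log2 -0.37, SE 0.14, adjusted p = 0.275), and with CBSL added the value was -0.20. Members whose libraries did not overlap numbered 5 on the high side (15.2%, against 9.28% of all features), adding ASNS and SLC1A4 to those above, and 1 on the low side (3.03%, against 9.08%).

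The genes at the centre of the response were close to level in A549. ATF4 had 261, 259 and 252 CPM with VGF, against 242, 256 and 254 CPM with empty vector (log2 0.04, 95% interval -0.04 to 0.12, adjusted p = 0.757). ASNS had 69.9, 70.2 and 72.9 CPM with VGF, against 63.7, 69.4 and 63.4 CPM with empty vector (log2 0.12, interval 0.01 to 0.22, adjusted p = 0.318). The 3 ASNS values with VGF lay just above the others, by under 1 CPM at the nearest pair. DDIT3 had 8.89, 6.60 and 7.86 CPM with VGF, against 6.58, 8.48 and 6.92 CPM with empty vector (log2 0.08, interval -0.23 to 0.39). TRIB3 had 66.1, 67.5 and 67.2 CPM with VGF, against 78.9, 74.2 and 64.8 CPM with empty vector (log2 -0.12, interval -0.34 to 0.10). CHAC1 had 3.49, 3.55 and 3.71 CPM with VGF, against 3.49, 2.39 and 4.87 CPM with empty vector. Its estimate of 0.00 had an interval of -0.47 to 0.47, which leaves room for a change that these libraries could not show.

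In H1299, 0 of 33 members passed the same test for VGF against empty vector by edgeR, where 0.011% of all features were called. At an unadjusted p under 0.05 there were 4, all on the low side (12.1%, against 4.67% of all features in that direction). They were ALDH1L2, SLC1A4, TRIB3 and DDIT4. DDIT4, also on the low side in A549, had 209, 261 and 220 CPM with VGF, against 245, 279 and 253 CPM with empty vector. Its libraries overlapped (log2 -0.17, SE 0.08, adjusted p = 0.636). DESeq2 called TRIB3 and ALDH1L2 as lower, 2 members, where it called 0.717% of features, and limma voom called 0. Values were nevertheless mostly below 0: 27 of the 33 tested members (81.8%), against 51.5% of all features, and the median was -0.10, against -0.00555. Many of these genes are known to be regulated together, so their signs are not independent. Under every alternative and every library left out, 25 to 29 members were below 0. The median was -0.05 without H1299 empty-vector library 2, which was the highest of its group for 23 of the 33 members, where 41.1% of well expressed features had their highest value.

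ALDH1L2, a mitochondrial folate dehydrogenase (chr12:105019784-105084577, minus strand), had the smallest p of the module in H1299. It had 43.2, 43.6 and 43.0 CPM with VGF, against 49.9, 57.5 and 57.8 CPM with empty vector. The VGF libraries lay close together below all empty-vector libraries (log2 -0.35, SE 0.07, adjusted p = 0.148). SLC1A4 (chr2:64988477-65023865, plus strand) had 41.1, 49.3 and 44.9 CPM with VGF, against 51.5, 58.3 and 55.1 CPM with empty vector (log2 -0.29, SE 0.07, adjusted p = 0.300). TRIB3 had 163, 142 and 158 CPM with VGF, against 169, 198 and 230 CPM with empty vector (log2 -0.36, SE 0.10, adjusted p = 0.368). These 3 genes, with PHGDH and PCK2, made up the 5 members whose VGF libraries lay wholly below (15.2%, against 7.07% of all features), and no member lay wholly above (5.65% of all features did).

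On the high side in H1299, ATF3 had 12.4, 15.4 and 10.7 CPM with VGF, against 12.6, 11.1 and 9.55 CPM with empty vector, with overlap (log2 0.21, SE 0.16, adjusted p = 0.866). VLDLR had 69.5, 69.9 and 72.9 CPM with VGF, against 64.4, 73.1 and 66.2 CPM with empty vector (log2 0.06, SE 0.07, adjusted p = 0.960), and on the FPKM scale its value was -0.25. ATF4 had 472, 480 and 459 CPM with VGF, against 450, 468 and 450 CPM with empty vector, again overlapping (log2 0.04, interval -0.04 to 0.12, adjusted p = 0.897). The messenger RNA of the factor itself was thus within 0.13 log2 units of the empty-vector level in both lines at the bounds of these intervals. ASNS had 1293, 1290 and 1204 CPM with VGF, against 1258, 1332 and 1361 CPM with empty vector (log2 -0.06, interval -0.16 to 0.04). DDIT3 had 43.1, 40.0 and 34.0 CPM with VGF, against 39.3, 48.0 and 47.3 CPM with empty vector (log2 -0.20, interval -0.47 to 0.07). CHAC1 had 76.1, 101 and 86.8 CPM with VGF, against 87.8, 92.6 and 76.0 CPM with empty vector (log2 0.04, interval -0.27 to 0.34). All 3 overlapped between the vectors.

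By role, the H1299 values were below 0 for 8 of 8 synthesis enzymes (median -0.07), 4 of 4 folate enzymes (-0.08), 6 of 7 transporters (-0.12), 3 of 4 signalling regulators (-0.19), 4 of 7 factors (-0.07) and 2 of 3 others (-0.11). In A549 the same roles had medians of 0.02, 0.11, 0.05, -0.06, 0.04 and -0.02. The log2 fold changes of the members in H1299 ran from -0.61, for NUPR1, to 0.21, for ATF3. NUPR1 also had the widest interval in H1299, down to -1.30 (adjusted p = 0.688). Its level was 1.11 ± 0.45 CPM with VGF and 1.71 ± 0.70 CPM with empty vector (SD, n = 3 each). The 95% interval lay within 1 log2 unit of 0 for the other 32 members and within 0.5 for 28. The 14 members not described one by one ran from -0.32 to 0.00 in H1299 and from -0.27 to 0.08 in A549, with SLC6A9, a glycine carrier, lowest in both, and their smallest adjusted p was 0.643 in H1299 and 0.483 in A549.

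**Figure D4:**
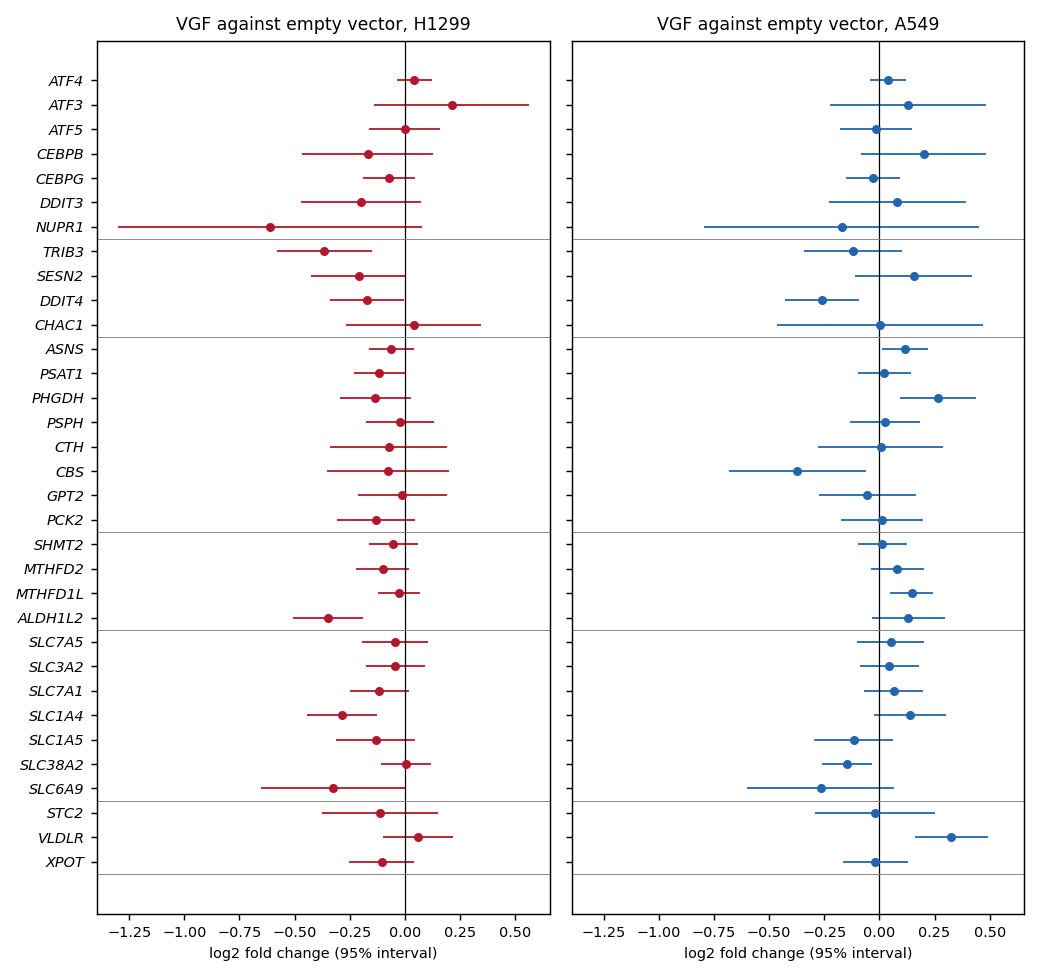
Points give the log2 fold change of VGF against empty vector for each of the 33 tested members, with 95% intervals, in H1299 and in A549. In H1299 27 points lie left of 0 and in A549 12 do, and the edgeR test on all 12 libraries called no member in either line.

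**Figure D5:**
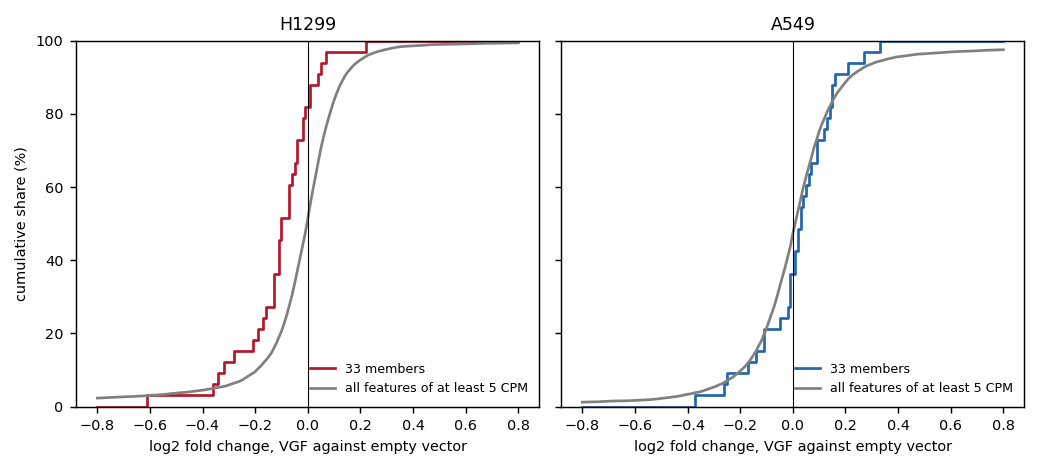
The curves give the cumulative share of the 33 members and of all features with at least 5 CPM in a group, in percent, over the log2 fold change of VGF against empty vector in each line. At 0 the members reach 81.8% in H1299 and 36.4% in A549, where these features reach 50.8% and 46.5%.

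The effect of VGF was not shown to differ between the lines for any single member. The difference of the effects (H1299 minus A549) was called by edgeR for 0 of 33 members, where 0.159% of all features were called. At an unadjusted p under 0.05 there were 8, all negative (24.2%, against 6.82% of all features in that direction). DESeq2 called 3, PHGDH, SLC1A4 and ALDH1L2, where it called 2.01% of features, and limma voom called 0. ALDH1L2 had the smallest p: its A549 libraries had 25.1, 24.0 and 24.4 CPM with VGF, against 24.6, 22.1 and 20.4 CPM with empty vector, next to the H1299 values given above. The difference was -0.48 (95% interval -0.71 to -0.25, adjusted p = 0.119).

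SLC1A4 followed, with 36.5, 35 and 33.7 CPM in A549 with VGF, against 32.8, 32.6 and 30.0 CPM in A549 with empty vector. Its libraries lay above in A549 and below in H1299 (difference -0.43, interval -0.65 to -0.20, adjusted p = 0.175). PHGDH had 312, 316 and 318 CPM in H1299 with VGF, against 337, 357 and 343 CPM in H1299 with empty vector, and it too lay below there and above in A549 (difference -0.40, interval -0.64 to -0.17, adjusted p = 0.220). The values of 17 members were positive in A549 and negative in H1299, 10 were negative in both, 4 positive in both and 2 negative in A549 and positive in H1299. These sign patterns were not counted over all features, so whether the 17 are unusual cannot be told. The difference was below 0 for 25 members (75.8%, against 54.0% of all features), with a median of -0.09, against -0.02. The median difference was -0.05 without H1299 empty-vector library 2 and -0.15 without H1299 empty-vector library 1, and -0.12 without A549 VGF library 2. No library left out gave a called member in the difference by edgeR.

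Neighbouring pathways were counted in the same fit. By edgeR, no gene of the 5 lists that follow was called for VGF in either line or in the difference. Between the lines, 38.5% of all features were called higher and 38.6% lower in H1299, the shares beside which each list's counts stand. Of 20 aminoacyl-tRNA synthetases, which charge tRNAs and are known ATF4 targets in large part, 19 were higher in H1299 with empty vector and 1 was lower, with a median log2 difference of 0.87. GARS, for glycine, had 691, 730 and 728 CPM in H1299, against 173, 168 and 174 CPM in A549 (4.18-fold), and FARSB, a phenylalanine subunit, had 72.8, 74.6 and 72.1 CPM in H1299, against 81.7, 87.1 and 84.2 CPM in A549 (log2 -0.20, adjusted p = 0.0027). For VGF these genes had medians of -0.02 in H1299 and 0.02 in A549.

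The 20 genes of eIF2 kinases, phosphatases and the eIF2 machinery had 8 called higher and 8 called lower in H1299, close to the shares over all features, with a median of 0.00. EIF2AK4, which encodes the amino acid sensor GCN2, had 186, 189 and 188 CPM in H1299 with empty vector, against 40.1, 41.0 and 38.3 CPM in A549 with empty vector, a 4.72-fold difference. EIF2AK3, which encodes PERK, went the opposite way, with 9.45, 10.3 and 10.3 CPM in H1299, against 40.3, 49.1 and 43.3 CPM in A549 (log2 -2.14, adjusted p = 1.1e-10). For VGF this list had medians of 0.01 in H1299 and 0.04 in A549. Of 20 endoplasmic reticulum folding genes under the factors XBP1 or ATF6, 2 were higher and 16 lower in H1299, with a median of -0.77. EDEM1, which directs misfolded glycoproteins to degradation, had 24.7, 24.3 and 25.6 CPM in H1299, against 108, 103 and 107 CPM in A549 (log2 -2.09), and HYOU1, a chaperone, had the larger of the 2 rises (log2 0.17, adjusted p = 0.0134). For VGF their medians were 0.01 in H1299 and -0.08 in A549, where 16 of 20 values were negative.

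A further list held 27 genes linked to ATF4, of which 26 were tested, and WARS in it is also counted among the synthetases. Of the 26, 12 were higher and 11 lower in H1299, both near the shares over all features, with a median of 0.16. The medians for VGF were -0.06 in H1299 and 0.01 in A549. FAM129A, a stress-induced regulator of eIF2 signalling, had 161, 163 and 179 CPM in H1299 with empty vector, against 0.41, 1.10 and 1.38 CPM in A549 with empty vector. TXNIP, a thioredoxin inhibitor, was low in both lines, with 0.07 to 0.10 CPM in H1299 and 0.90 to 2.38 CPM in A549. Of 17 genes of mTORC1 and its amino acid sensing, 8 were higher and 5 lower, with a median of 0.16, and their medians for VGF were -0.04 in H1299 and -0.02 in A549. RRAGD, a Rag GTPase, had 38.9, 36.6 and 40.7 CPM in H1299, against 5.41, 4.27 and 3.22 CPM in A549 (8.99-fold), and CASTOR1, the arginine sensor, had 1.43, 1.82 and 2.21 CPM in H1299, against 6.20, 5.91 and 4.75 CPM in A549 (log2 -1.63, adjusted p = 7.7e-05).

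Markers of other cell types were read beside these results. Summed over each list, endothelial markers had 27.0 to 32.9 CPM in H1299, fibroblast markers 1.62 to 2.86 CPM in H1299 and 23.0 to 36.3 CPM in A549, and immune markers 113 to 128 CPM in H1299 and 66.7 to 93.0 CPM in A549. The endothelial sum in H1299 came mostly from EGFL7 (909, 923 and 843 counts with empty vector). In A549 the fibroblast sum came mostly from COL1A1 (822, 787 and 717 counts with empty vector). Its top value, 36.3 CPM, was in A549 VGF library 2, where POSTN had 473 counts. CD3D and MS4A1, defining T and B cell genes, were at 0 in every group. The immune sum came mostly from CD68, also expressed outside the immune system, which had 4285, 4289 and 5050 counts in H1299 with VGF and 4653, 4907 and 4182 in H1299 with empty vector. In A549 it had 1639, 1975 and 1788 counts with VGF, against 2218, 2497 and 2412 with empty vector. CD68 was the only marker of these lists called for VGF, lower in A549 (log2 -0.42, adjusted p = 0.0187). Between the lines, called markers with large values included several at few counts: ERG (14, 31 and 29 counts in H1299 with empty vector, 0 in A549 with empty vector), CLDN5 (0 in H1299, 3, 9 and 18 in A549), ESRP1 (70, 89 and 85 in H1299, 0 in A549), DCN (21, 27 and 21 in H1299, 0 in A549), COL3A1 (0 in H1299, 62, 55 and 47 in A549) and CD14 (6, 21 and 8 in H1299, 681, 651 and 592 in A549). CDH1 had 2861, 2653 and 3020 counts in A549 with empty vector. Their part in the member results was not tested.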

How the data were processed

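Messenger RNA captured on beads was sequenced in 12 libraries. The authors deposited raw counts per feature and FPKM values (scaled by length and library size) for the same 26535 features. Per the submitters' processing notes, the build was GRCh38 and DESeq2 was used. Aligner, counting tool, annotation release and use of strand are not given there, in labels or in headers, so antisense and overlapping genes cannot be separated. 18 lines without values were left out. Library totals ran from 31378171 to 41919484 counts.

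The test on counts was edgeR's quasi-likelihood one (version 4.0.16, R 4.3.3). Scaling was by TMM, low counts were filtered with filterByExpr, and the model held 1 mean per group, with Benjamini-Hochberg adjustment over all 18228 features that passed. Calls were made at an adjusted p under 0.05. All adjusted p-values come from this fit unless another tool is named. The fit had 8 residual and 4.44 prior degrees of freedom. SE were derived from the F statistic. CPM of single genes use the TMM-adjusted size, and summed marker CPM use the library total alone. Well expressed features had at least 5 CPM in a group. The script was tested on simulated data. Alternatives were DESeq2 1.42.0, limma 3.58.1 (voom, and log2(FPKM + 1) and log2(FPKM + 0.1)), RLE and upper-quartile scaling, no filter, a replicate block, the groups of a comparison alone and each library left out. Floors are 3 counts over the 3 libraries of a group and cover counting error only.

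Replicate pairs of a group differed by more than sampling noise (chi-square per degree of freedom 7.6 to 20.6). Gene coordinates are from GENCODE 29, which held all 35 symbols. The members and lists were chosen with earlier results of these data known. Members were described by library if called for VGF, among the 3 smallest p-values per direction in a line, among the 6 largest line differences per direction, or ATF4, ASNS, DDIT3, TRIB3 or CHAC1. For each other list, genes called for VGF and the largest called rise and fall between lines were named, except a marker that is not reported here. Replicates are separate samples per the design text.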

Additional observations from a re-analysis of the deposited data

How the results depend on the processing

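The number of features called for VGF in A549, 144 by edgeR, was 709 by DESeq2, 334 by limma voom and 52 to 130 with single libraries left out. In H1299 it was 2 by edgeR, 132 by DESeq2, 1 by limma voom, 5 with no filter on low counts, 4 on FPKM with a pseudocount of 1, 4 with the groups of the comparison alone and 1 to 4 with single libraries left out. For the difference between lines it was 29 by edgeR, 315 by DESeq2, 19 by limma voom and 18 to 36 with single libraries left out. Members called were 4 in A549, 2 in H1299 and 3 in the difference by DESeq2, against 0 by edgeR and limma voom, and 0 to 1 in A549 with single libraries left out, the 1 being VLDLR without VGF library 2. The cause of the gap between DESeq2 and edgeR was not tested. The members called between the lines were 28 to 31 under every alternative. No comparison of the groups alone was possible for the difference.

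VGF and empty-vector libraries of a line with the same replicate number had correlations of -0.0514 to -0.00308 in their deviations from the group mean. Those with different numbers had -0.0372 to 0.0436. No shared deviation by number was visible, but whether libraries were prepared in pairs cannot be told from this. With the number as a replicate block, 63 features were called in A549 and 1 in H1299, and 0 members in either.

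Of the named members, these values changed sign. With upper-quartile scaling, CHAC1 in A549 was -0.012 and the SLC1A5 difference was 0.000672. On FPKM with pseudocounts of 1 and 0.1, NUPR1 in A549 was 0.316 and 0.386, VLDLR in H1299 -0.25 and -0.271, SLC3A2 between lines 0.156 and 0.157 and the ATF3 difference -0.00382 and -0.00254. The CHAC1 difference was -0.0285 by limma voom and -0.018 on FPKM with a pseudocount of 0.1. With single libraries left out, the difference ran from -0.0722 to 0.198 for ATF3, -0.00898 to 0.0304 for ATF4, -0.244 to 0.265 for CHAC1, -0.0106 to 0.151 for DDIT4 and -0.0954 to 0.0656 for SLC1A5. Values in A549 ran from -0.216 to 0.284 for CHAC1 and -0.0212 to 0.202 for DDIT3, and in H1299 from -0.0684 to 0.133 for CHAC1, -0.0218 to 0.0367 for SLC38A2 and -0.0852 to 0.0123 for SLC3A2. By edgeR on all 12 libraries, none of these was called for VGF in either line. DESeq2 called VLDLR and DDIT4 in A549. The scatter of deposited FPKM exceeds that of the counts for ATF4 in every group, and the cause was not tested. With 3 libraries a group, the 95% interval of a member's log2 fold change reached, at the median, 0.161 to either side of its estimate in H1299 and 0.166 in A549. These intervals are not adjusted over the features, and members with larger estimates, such as TRIB3 at -0.36 in H1299 and VLDLR at 0.33 in A549, were not called by edgeR.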
